A study of Oryza sativa Japonica Group with 15 samples.

Results

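The interior arms of rice chromosomes 11 and 12 were taken as all 10 kb bins lying more than 2 Mb from the centromere and more than 2 Mb from both chromosome ends. They comprised 4053 of the 37272 bins of the 12 chromosomes. The short and long arm of chromosome 11 contributed 800 and 1302 bins, and those of chromosome 12 contributed 790 and 1161 bins. The bins were chosen by position alone, with centromeres at 12.0 Mb on chromosome 11 and 11.9 Mb on chromosome 12. A 200 kb stretch of 20 bins on the long arm of chromosome 12, at 20.47 to 20.67 Mb, was known beforehand to hold many contacts, so values are given with it and without it. Its own values are a description.

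The measurements are single-cell Hi-C of rice (Oryza sativa, japonica cultivar Dongjin). The cells were 4 eggs from florets that had not been pollinated, 3 unicellular zygotes taken 6 to 8 hours after pollination, 4 sperm from stamens and, as the somatic comparison, 4 shoot cells of seedlings 12 days after germination. All share the cultivar, and no transgene, mutation or treatment is named. Since no plant of origin is labelled, a group is treated as 1 sample, SDs describe the spread between cells and no test between groups was made. The files hold DNA contacts only, so the named cell types could not be checked against marker genes.

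Hi-C joins DNA segments that lie close together in the nucleus, by cutting fixed chromatin, ligating the cut ends and sequencing the joined fragments. Contacts within a chromosome are called cis and contacts between chromosomes trans. In most nuclei each chromosome keeps to a territory of its own, so that cis contacts become rarer with distance along the chromosome. Chromosomes 11 and 12 of rice share an ancient duplicated segment near the ends of their short arms and are known for their many clusters of disease resistance genes. Genes along the arms were not analysed here, since the genome build of the files is not known.

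A contact is 1 distinct pair of restriction fragments in 1 cell. A cell had 761 to 4576 contacts from 2236 to 17291 read pairs. Far contacts, those that are trans or span at least 20 kb, numbered 130 to 558 per cell and form the basis of the results. No molecular identifiers were used, contacts that share a fragment are not independent, and the intervals given cover counting error only. Cells also shared contacts: 200 of the 5153 far fragment pairs were found in more than 1 cell, and 60 of the 1467 with an end in the arms. One pair with an end in the 200 kb stretch was found in 9 cells.

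The arms of chromosomes 11 and 12 carried more far contact ends per megabase than the interior arms of chromosomes 1 to 10 in 13 of the 15 cells. Most of the excess in eggs and zygotes lay in the 200 kb stretch on chromosome 12. With contacts of that stretch left out, 10 cells were above 1. With every distinct contact counted, short ones included, 10 cells were above 1 with the stretch and 3 without it.

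In eggs the ratio of far ends per megabase, arms of 11 and 12 over arms of 1 to 10, was 2.56, 2.27, 0.942 and 2.78 in eggs 1 to 4. Zygotes 1 to 3 had ratios of 2.89, 2.18 and 1.92. Sperm 1 to 4 had ratios of 1.80, 1.31, 1.00 and 2.21. In shoot cells 1 to 4 the ratio was 1.07, 1.36, 1.51 and 0.653. All 3 zygotes and 3 of the 4 eggs lay above all 4 shoot cells, while egg 3 lay among them and the sperm overlapped every other group. Means ± SD over cells were 2.14 ± 0.824 in eggs (n = 4), 2.33 ± 0.502 in zygotes (n = 3), 1.58 ± 0.530 in sperm (n = 4) and 1.15 ± 0.378 in shoot cells (n = 4).

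Without the stretch the ratio was 1.17, 0.824, 0.924 and 1.63 in eggs 1 to 4 and 1.17, 1.32 and 1.01 in zygotes 1 to 3. Sperm 1 to 4 then had ratios of 1.77, 1.24, 1.01 and 1.83, and shoot cells 1 to 4 had 0.961, 0.919, 1.42 and 0.443. The 4 groups overlapped. The means were 1.14 ± 0.357 in eggs, 1.17 ± 0.156 in zygotes, 1.46 ± 0.401 in sperm and 0.935 ± 0.398 in shoot cells. Sperm moved least. Over all distinct contacts without the stretch, the means were 1.05 ± 0.184 in eggs, 0.866 ± 0.109 in zygotes, 1.03 ± 0.156 in sperm and 0.784 ± 0.271 in shoot cells.

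**Figure D1:**
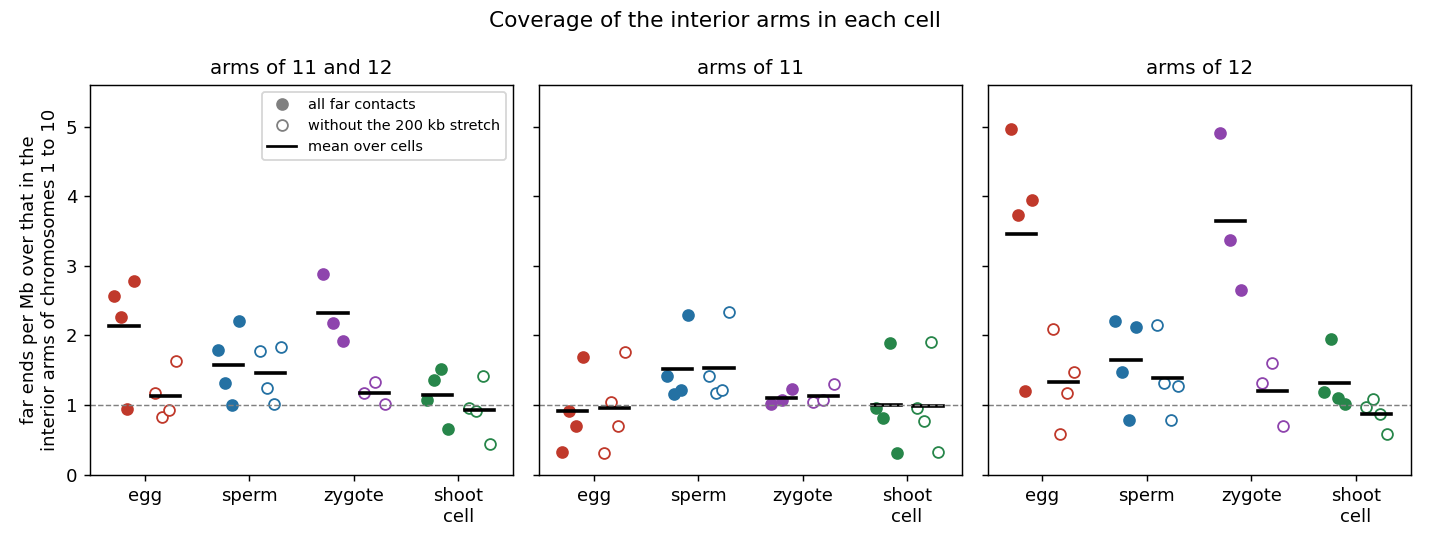
Far contact ends per megabase in the interior arms of chromosomes 11 and 12 together (left), of chromosome 11 (middle) and of chromosome 12 (right), divided by the same density in the interior arms of chromosomes 1 to 10. Each point is 1 cell, filled for all far contacts and open without those of the 200 kb stretch, and bars are means; the dashed line marks 1, and the chromosome 12 ratio of eggs averaged 3.46 with the stretch and 1.33 without it.

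The stretch lies on chromosome 12. Chromosome 12 had a higher ratio than chromosome 11 in 12 of the 15 cells with the stretch and in 9 without it. Its ratio was above 1 in 14 of the 15 cells with the stretch and in 9 without it, and the mean without it was 1.33 ± 0.630 in eggs, 1.21 ± 0.458 in zygotes, 1.38 ± 0.565 in sperm and 0.877 ± 0.216 in shoot cells. With the stretch included, chromosome 12 had the highest far-end density of the 12 chromosomes in 3 of 4 eggs, 2 of 3 zygotes, 2 of 4 sperm and 1 of 4 shoot cells. Without it, chromosome 12 came first in 1 egg and 1 sperm. Chromosome 11 without the stretch averaged 0.956 ± 0.616 in eggs, 1.13 ± 0.141 in zygotes, 1.54 ± 0.547 in sperm and 0.988 ± 0.671 in shoot cells. In sperm, all 4 cells were above 1 on chromosome 11, with ratios of 1.42, 1.17, 1.21 and 2.34.

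The short arm of chromosome 11 was the densest part in sperm outside the stretch, at 2.25 ± 1.04 times the arms of 1 to 10, with every sperm cell above 1 and the cells between 1.38 and 3.74. The mean was 1.76 without sperm 4, the highest, in which 10 of the 17 ends of this arm lay on 1 fragment. A single bin held 14 of the 25 ends of this arm in sperm 3 and 11 of 25 in sperm 1. The same arm averaged 1.52 ± 1.32 in zygotes (0.758 without zygote 3, at 3.05), 1.18 ± 0.917 in eggs and 1.11 ± 0.546 in shoot cells. The short arm of chromosome 12 averaged 1.65 ± 0.699 in zygotes, where all 3 cells were above 1, 1.80 ± 1.33 in eggs, 1.61 ± 1.38 in sperm (0.956 without sperm 1, at 3.57) and 0.932 ± 0.386 in shoot cells. The long arms averaged between 0.820 and 1.23 in the 4 groups, and that of chromosome 11 in shoot cells averaged 0.577 without shoot cell 3. These are densities along the arms and not expression or copy number, which the files do not give.

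**Figure D2:**
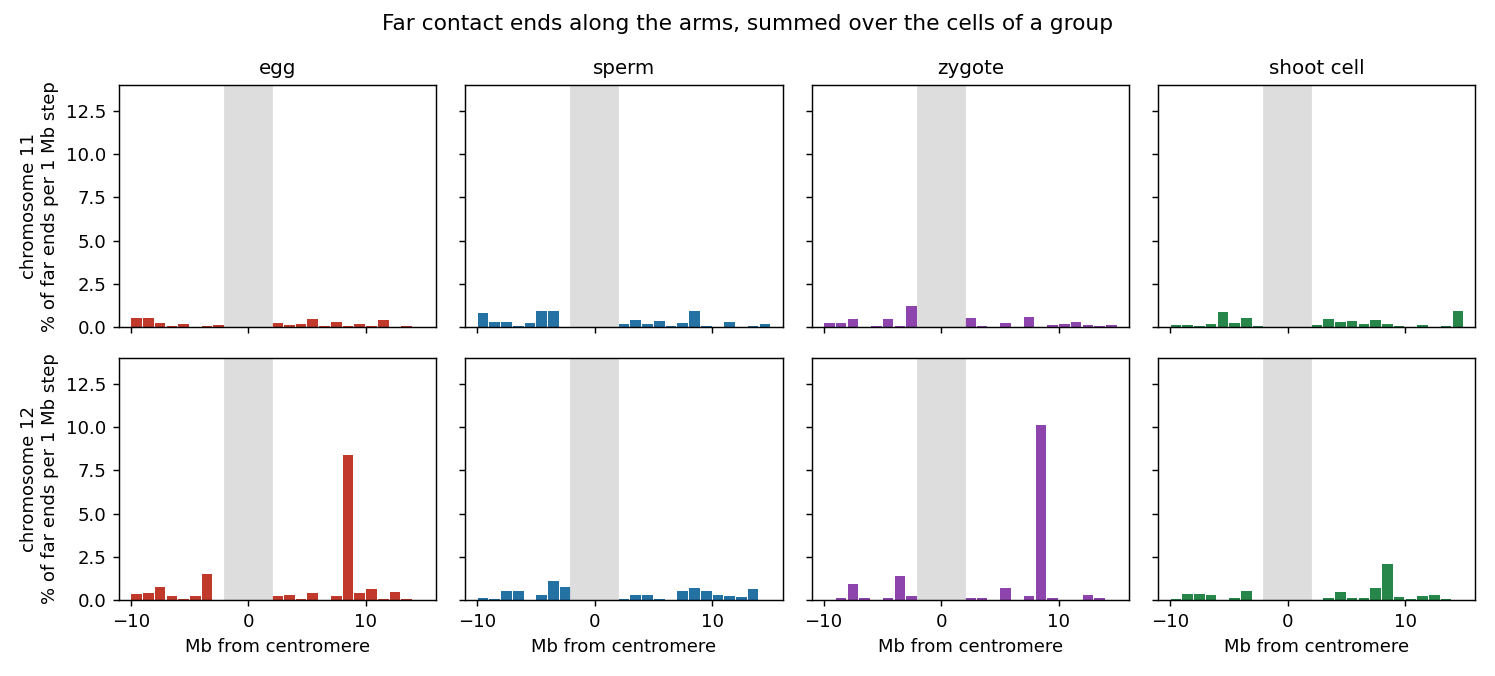
Percent of all far contact ends of a group in each 1 Mb step along the interior arms of chromosome 11 (top) and chromosome 12 (bottom), summed over cells, against distance from the centromere in Mb (negative on the short arm). The grey band is the left-out 2 Mb on either side of the centromere; the tall bar on the long arm of chromosome 12 holds the 200 kb stretch and stands out in eggs and zygotes, is lower in shoot cells and does not stand out in sperm.

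The stretch at 20.47 to 20.67 Mb makes up 0.493% of the length of the arms. It held 127, 147, 3 and 62 of the 256, 229, 112 and 168 far ends of the arms in eggs 1 to 4. In zygotes 1 to 3 it held 63, 64 and 58 of 110, 157 and 117 ends. Sperm 1 to 4 had 2, 4, 0 and 9 of 132, 63, 59 and 52 ends there, and shoot cells 1 to 4 had 11, 26, 10 and 11 of 103, 84, 128 and 36. Every zygote and 3 of 4 eggs had more than 50 ends in the stretch, whereas no sperm or shoot cell had more than 26.

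As a share of all far ends in a cell, the stretch held 11.7%, 13.9%, 0.269% and 7.73% in eggs 1 to 4 and 14.2%, 7.98% and 8.73% in zygotes 1 to 3. In sperm 1 to 4 the share was 0.256%, 0.803%, 0% and 3.46%, and in shoot cells 1 to 4 it was 1.23%, 4.02%, 1.16% and 2.26%. The exact 95% interval was 0.0555% to 0.784% in egg 3 and 5.98% to 9.80% in egg 4, the next lowest egg. For sperm 3, 0 of 622 ends allows a share of up to 0.482%, taking 3 ends as the most that a count of 0 allows. With every distinct contact counted, short ones included, the share was 8.23%, 8.86%, 0.120% and 9.12% in eggs 1 to 4 and 7.01%, 4.32% and 9.81% in zygotes 1 to 3. Counted that way, sperm ranged from 0.0782% to 3.61% and shoot cells from 0.386% to 2.08%, so the highest sperm and shoot cell lay below the lowest zygote.

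Few far ends lay next to the stretch, but its limits were set with its many contacts known. In the arms as a whole, 9.45% of bins held a far end in some cell. The 200 kb before it held 1 far end in eggs, 6 in zygotes, 0 in sperm and 1 in shoot cells, and the 200 kb after it held 0 in every group. The stretch itself held 339 ends in eggs, 185 in zygotes, 15 in sperm and 58 in shoot cells. Inside it the ends fell into a pair of clusters. The bin that starts at 20.50 Mb held 111 ends from 9 cells and the next one, at 20.51 Mb, held 106 ends from 8 cells. The bins that start at 20.58, 20.59 and 20.60 Mb held none. The later cluster peaked at 20.62 Mb, with 44 ends from 12 cells, and at 20.66 Mb, with 48 ends from 10 cells. Most sperm ends lay in this later cluster, 4 in the bin at 20.62 Mb and 7 in the bin at 20.66 Mb, and sperm had none in the bins at 20.50 and 20.51 Mb.

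Many partners of the stretch lay in bins that other cells used too. A bin is called recurrent where 5 or more of the 15 cells had a far contact in it, which uses these same contacts. Among far contacts that left the stretch, 48.8% in eggs (140 of 287), 47.2% in zygotes (77 of 163), 100% in sperm (13 of 13) and 59.6% in shoot cells (31 of 52) ended in such a bin. Eggs 1, 2 and 4 ranged from 26.4% in egg 2 to 87.0% in egg 4, and the zygotes from 30.2% to 72.0%. Of the far ends in the arms of 1 to 10, a mean over cells of 23.3% lay in recurrent bins in eggs, 34.1% in zygotes, 9.39% in sperm and 7.47% in shoot cells. This is an unlike measure, since it is not pooled and leaves out bins near centromeres and chromosome ends. Contacts of the stretch also count towards making their own partner bins recurrent. Chromosome 12 was the most common partner chromosome with 115 contacts (22.3%), followed by chromosome 1 with 72 and chromosomes 4 and 9 with 61 each. The most common partner bins were at 13.38 Mb of chromosome 12 (21 contacts, 10 cells), 4.72 Mb of chromosome 9 (20 contacts, 8 cells), 32.88 Mb of chromosome 4 (17 contacts, 6 cells) and 8.53 Mb of chromosome 12 (16 contacts, 7 cells). The bin at 13.38 Mb belongs to a group of 8 recurrent bins, 1 at 13.05 Mb and the others between 13.34 and 13.41 Mb, within 2 Mb of the centromere and so outside the arms. These met the stretch 24 times in eggs, 20 times in zygotes, 5 times in sperm and 10 times in shoot cells.

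Single fragments carried many of these contacts. In egg 2 the busiest fragment of the stretch had 29 partner fragments, and in egg 1 the busiest had 15. Of the fragments of the stretch with a far contact, 75 (49.0%) were seen in more than 1 cell, against 56 of the 574 fragments (9.76%) elsewhere in the arms. Exact fragment pairs went the other way. Of the 528 far pairs with an end in the stretch, 15 (2.84%) were found in more than 1 cell. Among pairs with an end in the arms but none in the stretch it was 45 of 939 (4.79%). The part that fragments shared between cells have in these counts was not tested.

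Across the whole arms, 383 of the 4053 bins (9.45%) held a far end in some cell, close to the 8.90% of bins in the arms of 1 to 10. Recurrent bins numbered 28 of the 4053 (0.691%), against 0.255% of all bins and 0.190% in the arms of 1 to 10 (45 of 23732). In the interior arms of chromosomes 1 to 3 alone it was 0.262% (24 of 9145). Of the 28, 14 lay in the stretch, 8 elsewhere on chromosome 12 and 6 on chromosome 11. The stretch was known beforehand to be crowded, and only 14 recurrent bins lay outside it. Chromosome 11 alone had recurrent bins at 0.285%, near the 0.255% of all bins. At the threshold, 3 bins in exactly 5 cells held 5 to 20 ends and 3 bins in exactly 4 cells held 5 to 9 ends.

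Outside the stretch, a pair of neighbouring bins on the short arm of chromosome 12 was the busiest. The bin at 8.54 Mb held 54 ends in 9 cells, 30 of them in eggs, 15 in zygotes, 5 in sperm and 4 in shoot cells. The bin at 8.53 Mb held 46 ends in 9 cells, 26 of them in eggs, 11 in zygotes, 3 in sperm and 6 in shoot cells. The next were on chromosome 12 at 17.34 Mb (32 ends, 9 cells), at 4.67 Mb (29 ends, 8 cells) and at 24.68 Mb (25 ends, 9 cells). On chromosome 11 the bin at 23.37 Mb was found in the most cells, 8, with 17 ends, while 3 other recurrent bins had 18 to 20 ends in 5 to 7 cells. Each of these 6 bins held ends in all 4 kinds of cell.

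**Figure D3:**
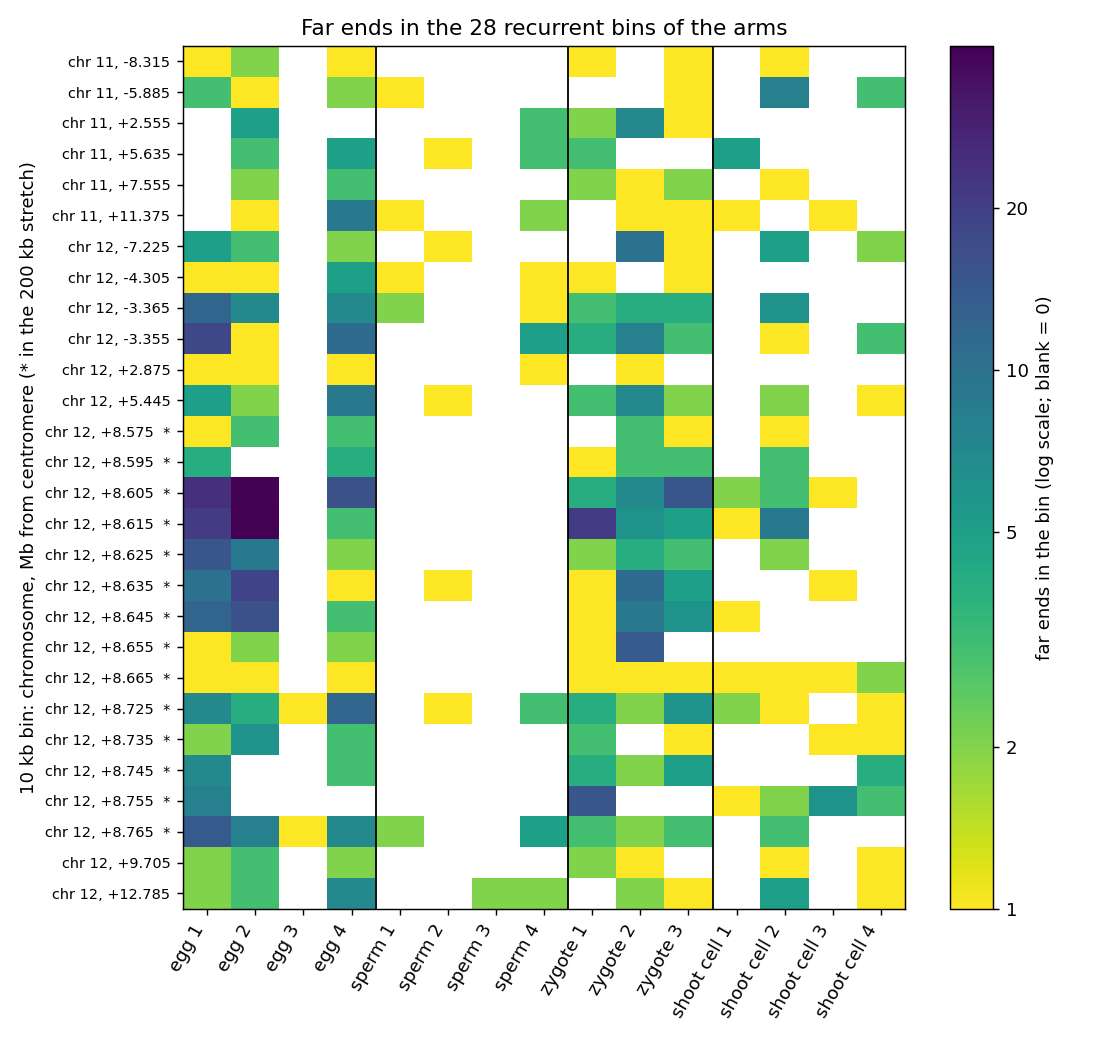
Far contact ends in each of the 28 recurrent bins of the arms (one line per bin, by chromosome and distance from the centromere in Mb, with * for the stretch) in each of the 15 cells, on a logarithmic colour scale; blank means 0. Eggs 1, 2 and 4, the 3 zygotes and shoot cell 2 fill most lines, while egg 3, sperm 1, 2 and 3 and shoot cell 3 fill few.

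The share of a cell's arm ends that lay in recurrent bins differed widely between cells of 1 kind. It was 69.1%, 79.5%, 1.79% and 73.8% in eggs 1 to 4 and 74.5%, 67.5% and 61.5% in zygotes 1 to 3. Sperm 1 to 4 had 5.30%, 7.94%, 3.39% and 50%, and shoot cells 1 to 4 had 13.6%, 65.5%, 8.59% and 61.1%. Egg 3 lay far below the other eggs and sperm 4 far above the other sperm, and shoot cells fell on both sides. Ends outside the stretch behaved likewise in single cells, with 0 of 109 ends in egg 3, which allows a share of up to 2.75% by the same limit of 3 ends, against 38.8% to 60.4% in the other eggs. Egg 3 had the most contacts of all cells, 4576, and sperm 4 the fewest, 761. The part of depth in this difference was not tested.

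In 7 of the 15 cells the busiest bin of the arms was seen in that cell alone, both in cells with few recurrent ends and in cells with many. In egg 3 the bin at 22.85 Mb of chromosome 12 held 21 far ends. In shoot cell 3 the bin at 26.05 Mb of chromosome 11 held 27, of which 26 lay on 1 fragment. In zygote 3 the bin at 9.46 Mb of chromosome 11 held 21, of which 17 lay on 1 fragment. The busiest bins of sperm 1, 2 and 4 and of shoot cell 1 were of this kind too, with 5 to 16 ends.

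Summed over cells, the share of far cis contacts that reached over 2 Mb was lower in the arms of 11 and 12 than in the arms of 1 to 10 in all 4 groups. Long contacts, cis contacts of at least 2 Mb, were 49.5% of far cis contacts in eggs (52 of 105, exact interval 39.6% to 59.5%), against 51.3% in the arms of 1 to 10. They were 35.1% in zygotes (13 of 37, 20.2% to 52.5%), against 66.7%. In sperm they were 15.2% (7 of 46, 6.34% to 28.9%), against 34.6%, and in shoot cells 36% (9 of 25, 18.0% to 57.5%), against 47.9%. In sperm and zygotes the value of the arms of 1 to 10 lay outside the interval of the arms of 11 and 12, and in eggs and shoot cells it lay inside. These differences were not tested, and span is bounded by the length of the arms, which differs between chromosomes. Chromosome 11 alone lay below the arms of 1 to 10 in all 4 groups. Chromosome 12 alone lay below them in zygotes (26.9%) and sperm (13.8%) but above them in eggs (58.6%) and shoot cells (57.1%). The intervals of eggs and sperm do not overlap, but they leave out the spread between cells, and sperm 1 held 35 of the 46 sperm contacts. The difference between these groups was not tested.

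Single cells weighed heavily in these shares. Long contacts were 26 of 42, 7 of 23, 5 of 10 and 14 of 30 in eggs 1 to 4, and 2 of 13, 9 of 16 and 2 of 8 in zygotes 1 to 3. They were 3 of 35, 3 of 7, 0 of 2 and 1 of 2 in sperm 1 to 4, and 1 of 7, 3 of 9, 2 of 5 and 3 of 4 in shoot cells 1 to 4. Sperm 1 therefore held 35 of the 46 far cis contacts of sperm, and without it the sperm share was 36.4%. Without zygote 2 the zygote share was 19.0%.

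The low sperm share came with contacts of intermediate span. Contacts of 200 kb to 2 Mb numbered 29 of 46 in sperm, of which sperm 1 held 27. In that cell 22 of the 27 lay on chromosome 12, in few places: they joined 8 pairs of bins across both chromosomes, and the pair at 8.74 and 9.42 Mb alone held 8 contacts. In eggs 22 contacts had this span, 12 of them in egg 4, where 10 joined the bins at 2.18 and 2.61 Mb of chromosome 11. Zygotes had 4 and shoot cells 2.

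Leaving out the stretch lowered the long share to 36.1% in eggs (13 of 36) and to 11.6% in sperm (5 of 43), and gave 52.9% in zygotes (9 of 17) and 35% in shoot cells (7 of 20). In eggs the contacts removed were all of chromosome 12, whose arms had 51 long contacts of 87 far cis contacts (58.6%), against 1 of 18 (5.56%) in the arms of chromosome 11. Without the stretch chromosome 12 had 12 long contacts of 18 in eggs (66.7%), a higher share than with it. The lower egg share of both chromosomes together thus came with a greater weight of chromosome 11. Contacts across the centromere, from short to long arm, were 29.5% of far cis contacts in eggs, 24.3% in zygotes, 10.9% in sperm and 24% in shoot cells. Without the stretch they were 8.33% in eggs, 29.4% in zygotes, 6.98% in sperm and 20% in shoot cells.

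Summed over cells, far contacts took a larger part of all cis contacts in the arms of 11 and 12 than in the arms of 1 to 10 in every group: 9.56% against 2.49% in eggs, 11.8% against 3.63% in zygotes, 6.56% against 2.75% in sperm and 3.08% against 2.75% in shoot cells. The exact intervals of both sets of arms overlapped in shoot cells (2.00% to 4.51% against 2.32% to 3.23%) and not in the other groups. Without the stretch the arms of 11 and 12 had 4.60% in eggs, 9.09% in zygotes, 6.65% in sperm and 2.66% in shoot cells, the last below the arms of 1 to 10. Single cells weighed heavily here too. Sperm 1 held 35 of the 46 far cis contacts of sperm. Sperm 3 and sperm 4, with 2 each, had a lower share than their arms of 1 to 10, and sperm 1 and sperm 2 a higher one. Without the stretch zygote 2 held 12 of the 17 of zygotes and was the only zygote above its arms of 1 to 10. Contacts under 1 kb were between 66.9% and 74.5% of cis contacts of the arms in the 4 groups. In that range 3.85% to 10.8% of read pairs had both reads on the same strand, whereas from 20 kb on 36.5% to 64.7% did.

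**Figure D4:**
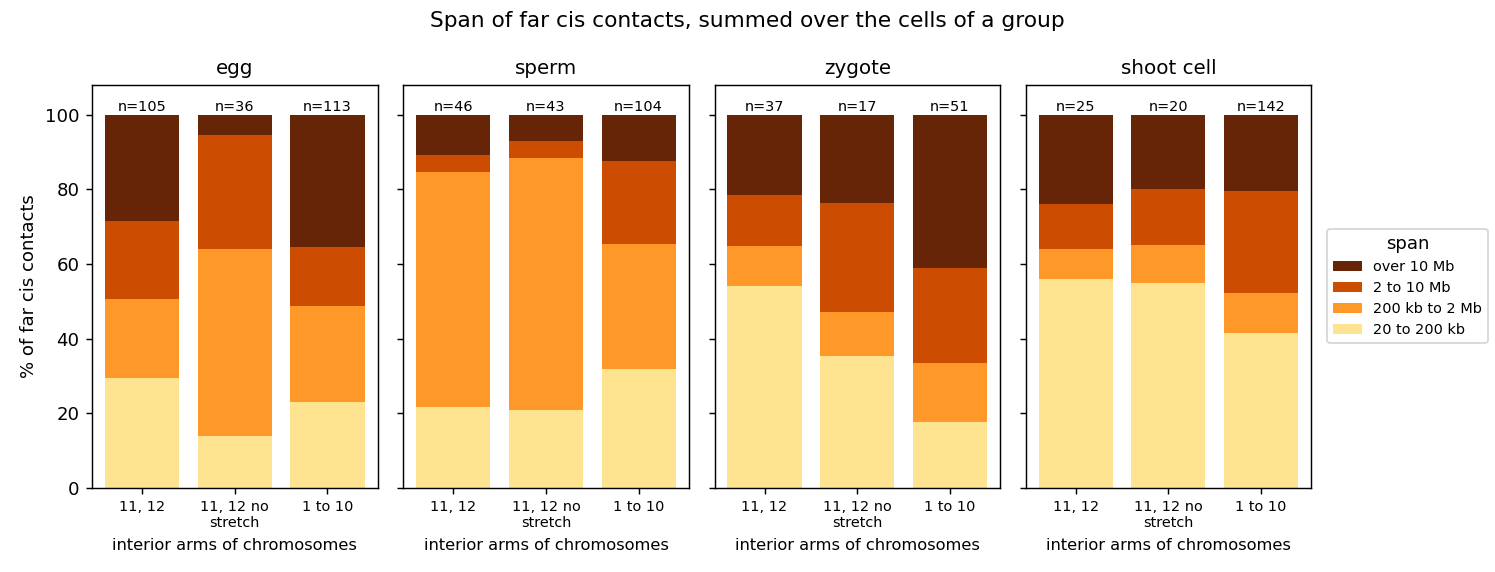
Percent of far cis contacts in 4 classes of span, summed over the cells of each group, for the interior arms of chromosomes 11 and 12, the same without the 200 kb stretch, and the interior arms of chromosomes 1 to 10; n is the number of contacts. Contacts over 2 Mb, the darkest classes, fill 15.2% of the bar of the arms of 11 and 12 in sperm and 49.5% in eggs.

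Most far contacts of the arms were trans. The trans share was 72.5%, 85.9%, 88.2% and 66.4% in eggs 1 to 4, and 81.1%, 78.7% and 83.3% in zygotes 1 to 3. It was 61.5%, 73.2%, 96.4% and 85.7% in sperm 1 to 4 and 90.2%, 80.8%, 94.2% and 78.1% in shoot cells 1 to 4. The groups overlapped, with means of 78.3% ± 10.5 in eggs, 81.0% ± 2.33 in zygotes, 79.2% ± 15.2 in sperm and 85.8% ± 7.60 in shoot cells. Without the stretch the means were 85.1% ± 7.31 in eggs, 86.3% ± 8.18 in zygotes, 82.1% ± 16.7 in sperm and 89.6% ± 4.76 in shoot cells. In the arms of 1 to 10 the means were 89.1% in eggs, 89.7% in zygotes, 83.0% in sperm and 83.3% in shoot cells. In eggs and zygotes, the arms of 11 and 12 thus lay closer to the arms of 1 to 10 without the stretch than with it.

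Contacts between the arms of chromosome 11 and those of chromosome 12 were few. Expected numbers were computed in each cell from the share of trans ends on each arm set. Eggs had 5 such contacts where 16.0 were expected (ratio 0.313, exact Poisson interval 0.102 to 0.730), with 3, 1, 0 and 1 in eggs 1 to 4. Zygotes had 8 where 10.5 were expected (0.763, 0.329 to 1.50), with 2, 5 and 1 in zygotes 1 to 3. Sperm had 3 where 7.08 were expected (0.424, 0.0874 to 1.24), and shoot cells had 9 where 9.43 were expected (0.954, 0.436 to 1.81).

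Only the egg interval lay below 1. The egg ratio was 0.153 without egg 1, and the zygote ratio was 0.408 without zygote 2. Without the stretch, eggs had 1 contact where 6.94 were expected (0.144, 0.00365 to 0.803), zygotes 2 where 3.65 were expected, sperm 3 where 6.53 were expected and shoot cells 6 where 7.20 were expected. Numbers this small limit each ratio to the widths shown. With the whole of chromosome 12, the arms of chromosome 11 had 21 contacts in eggs where 25.3 were expected (0.830, 0.514 to 1.27). That was above expectation in 2 of 4 eggs. The same ratio was 1.09 in zygotes, 0.571 in sperm and 1.02 in shoot cells. With the whole of chromosome 11, the arms of chromosome 12, stretch included, had 10 contacts in eggs where 26.4 were expected (0.379, 0.182 to 0.697).

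Against the other chromosomes, the arms of chromosome 11 exceeded expectation most with chromosome 4 in both gametes. In sperm there were 25 contacts where 10.7 were expected (ratio 2.33, 1.51 to 3.44), above the expected number in 4 of 4 cells. The counts were 8, 6, 4 and 7 in sperm 1 to 4, against expected counts of 2.95, 2.45, 2.41 and 2.91. In eggs there were 20 where 10.6 were expected (1.88, 1.15 to 2.91), above it in 3 of 4 cells. Zygotes had the most contacts above expectation with chromosome 2 (16 where 7.96 were expected, ratio 2.01, 3 of 3 cells), and shoot cells with chromosome 7 (23 where 12.3 were expected, ratio 1.87, 3 of 4 cells). The second highest partners of chromosome 11 were chromosome 3 in eggs (1.64), sperm (1.36) and shoot cells (1.22) and chromosome 8 in zygotes (1.54). Leaving out 1 cell ended the excess in 2 of these: chromosome 8 in zygotes fell to 0.702 without zygote 3, and chromosome 3 in shoot cells to 0.914 without shoot cell 3. Chromosome 3 was at 1.07 in eggs without egg 2 and at 1.01 in sperm without sperm 3.

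The lowest partners of the arms of chromosome 11 were chromosomes 7 (0.301) and 1 (0.463) in eggs, 3 (0.351) and 1 (0.588) in zygotes, 6 (0.397) and 12 (0.571) in sperm, and 10 (0.476) and 6 (0.652) in shoot cells. These rest on few contacts, and leaving out 1 cell moved most of them by over 1.5 times. Chromosome 7 in eggs was at 0 without egg 3, and chromosome 6 in sperm at 0 without sperm 3. In zygotes chromosome 3 was at 0.212 without zygote 2 and chromosome 1 at 0.201 without zygote 3. In shoot cells chromosome 10 was at 0.254 without shoot cell 3, and chromosome 6 was at 0.425 without shoot cell 2 and 1.44 without shoot cell 3. Of the 44 ratios of chromosome 11 over the 4 groups, 6 had an interval that excluded 1, and no adjustment for the number of ratios was made.

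For the arms of chromosome 12 without the stretch, zygotes had 13 contacts with chromosome 6 where 3.71 were expected (3.50, 1.86 to 5.99), but 11 of them were in zygote 2, without which the ratio was 1.66. Chromosome 3 was next in zygotes (1.82). Eggs met chromosomes 8 (1.55, but 0.911 without egg 3) and 3 (1.54, but 1.15 without egg 4) most. Sperm met chromosomes 7 (1.79) and 1 (1.43) most, and shoot cells chromosomes 4 (1.53, above expectation in 4 of 4 cells) and 1 (1.50). Chromosome 9 was among the lowest 2 partners in eggs (0.459), sperm (0.340) and shoot cells (0.452). Chromosome 11 was among them in eggs (0.269) and zygotes (0.389), chromosome 10 in zygotes (0.310) and shoot cells (0.558), and chromosome 3 in sperm (0.469). The values of chromosomes 10 and 3 rest on 2 to 4 contacts, with intervals that included 1. The intervals of chromosome 9 included 1 in sperm (2 contacts, 0.0412 to 1.23) and shoot cells (4 contacts, 0.123 to 1.16). Without 1 cell, chromosome 9 ranged from 0.261 (egg 2 left out) to 0.592 (egg 3) in eggs. It ranged from 0.208 (sperm 4) to 0.479 (sperm 2) in sperm and from 0.251 (shoot cell 4) to 0.621 (shoot cell 1) in shoot cells. Chromosome 11 was at 0.126 in eggs without egg 1 and 0.383 without egg 4, and in zygotes at 0.615 without zygote 1 and 0 without zygote 2. Of the 44 ratios, 4 had an interval that excluded 1, against 3 of 44 with the stretch included. Chromosome 9 with the stretch included was at 1.13 in eggs (0.825 to 1.51), 0.314 in sperm and 0.746 in shoot cells. The stretch alone met chromosome 9 in eggs 37 times where 22.3 were expected (1.66, 1.17 to 2.28), above expectation in 4 of 4 eggs.

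**Figure D5:**
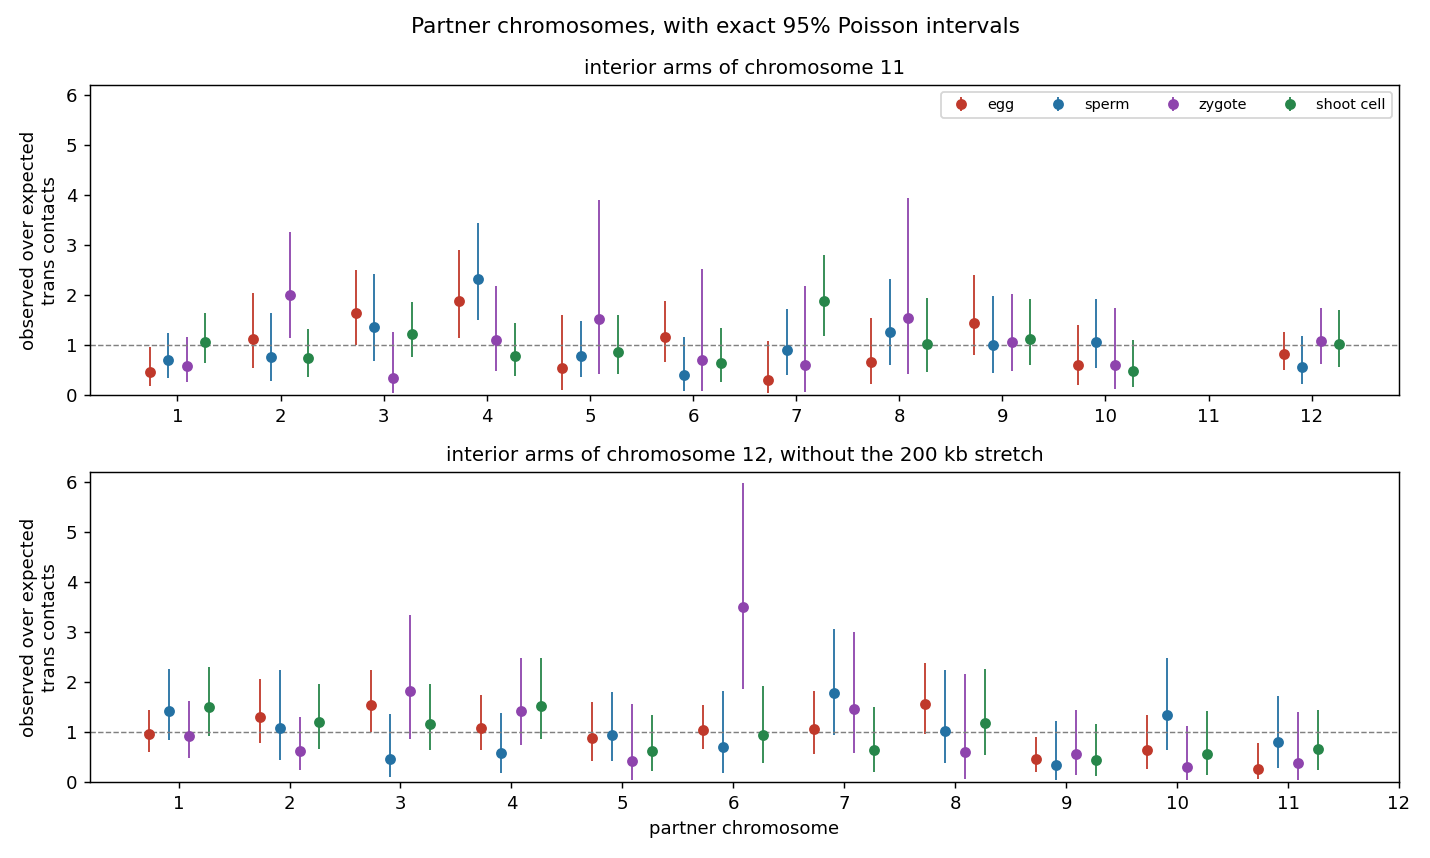
Observed over expected trans contacts of the interior arms of chromosome 11 (top) and of chromosome 12 without the 200 kb stretch (bottom) with each other chromosome, summed over the cells of a group; bars are exact 95% Poisson intervals and the dashed line marks 1. Most intervals cross the line; chromosome 4 with chromosome 11 in sperm (2.33) and chromosome 6 with chromosome 12 in zygotes (3.50) lie above it.

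By position of the partner, the arms of chromosome 12 in eggs met bins within 2 Mb of other centromeres 82 times where 62.2 were expected (1.32, 1.05 to 1.64), above expectation in 4 of 4 eggs. They met the outer 2 Mb of chromosomes 19 times where 31.2 were expected (0.608, 0.366 to 0.950), below expectation in 4 of 4 eggs. Near centromeres the other groups had ratios of 1.13 in zygotes (0.793 to 1.55), 0.737 in sperm (0.296 to 1.52) and 0.852 in shoot cells (0.505 to 1.35). At chromosome ends they had 1.02 in zygotes, 0.810 in sperm and 0.605 in shoot cells (0.302 to 1.08). In eggs the stretch alone met the regions near centromeres 51 times where 32.3 were expected (1.58, 1.18 to 2.08). Without the stretch the arms of chromosome 12 met them 31 times where 30.0 were expected. At chromosome ends the arms of chromosome 11 went the other way in eggs, with 13 contacts where 8.78 were expected (1.48, 0.789 to 2.53), above expectation in 4 of 4 eggs. Their ratio at ends was 1.49 in zygotes, 0.979 in sperm and 1.05 in shoot cells. Near centromeres it was 1.25 in eggs (0.857 to 1.77).

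Some contacts of the arms were found again in other cells, which was not tested against chance. Among pairs of 100 kb bins joined by a far contact of at least 200 kb or in trans, 72 of the 863 with an end in the arms (8.34%) were found in at least 2 cells. With an end in the stretch it was 34 of 205 (16.6%), and with an end in the arms outside the stretch 38 of 658 (5.78%), close to the 5.81% of all pairs (193 of 3324). The pair of 13.3 and 20.5 Mb on chromosome 12 was found in 10 cells, namely eggs 1, 2 and 4, all 3 zygotes and all 4 shoot cells. Outside the stretch, 3 pairs with an end on chromosome 11 were found in 6 cells each. They joined 17.6 Mb with 0.6 Mb of chromosome 8, 3.6 Mb with 7.1 Mb of chromosome 9, and 23.3 Mb with 13.3 Mb of chromosome 12.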

How the data were processed

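Single-cell Hi-C of 15 rice cells was analysed. Per the labels' protocols, each cell was fixed, digested with DpnII and ligated, and its DNA was amplified by multiple displacement. The authors deposited 1 read pair per line with the chromosome, position, restriction fragment and strand of both ends; these are positions, not normalized values, and other columns were identifiers. Aligner, caller and build: not given in the sources used here. A file of chain letters was not used here. Of the 4 shoot cells listed, the submitters' design text counts fewer.

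Read pairs were reduced to distinct fragment pairs at fragment midpoints, and chromosome lengths were taken as the largest fragment end. Centromeres are positions known for the rice reference; their fit to the files' build was not tested. Without the stretch means that contacts with an end in it, and its length, were left out. Expected 11 to 12 contacts came from trans ends per cell, and expected partner contacts from the partner chromosomes' shares of trans ends. Binomial intervals are Clopper-Pearson at 95%, and a count of 0 is given with a limit of 3 counts. Depth was 761 to 4576 contacts per cell. Named bins were the 12 recurrent ones with most cells, and named partners the 2 highest and 2 lowest per group; bins seen in 1 cell, and bins and pairs in the stretch beyond those 12, were named after their values were seen. Members and lists were chosen with earlier results of these data known. Measures were tested on simulated contacts. Alternatives tried were isolated contacts left out, thinning, fragments with more than 4 partners left out, 1 contact per pair of 10 kb bins, 3 Mb edges, 50 kb as the far limit, all contacts, another reference, length-based expectation, means over cells, recurrent bins left out, and cells left out (for partners and single arms, chosen after seeing the data). Python 3.11.15, numpy 2.4.6, pandas 2.3.3, scipy 1.17.1 and matplotlib 3.10.9 were used.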

Additional observations from a re-analysis of the deposited data

Results flagged for a closer look

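Among 33 sets of values over the cells of 1 group, 2 held a cell far from its neighbours by Dixon's criterion, which chance meets in about 1 in 20 sets. The share of far ends of the arms that lay in recurrent bins was 1.79% in egg 3, against 69.1% to 79.5% in the other eggs. The same share was 50% in sperm 4, against 3.39% to 7.94% in the other sperm. Both concern the same measure.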

How the results depend on the processing

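Few contacts limit every value, since far cis contacts numbered 25 to 105 per group and contacts between chromosomes 11 and 12 numbered 3 to 9. Of the settings other than leaving out 1 cell, 34 coverage values moved by less than the spread between cells or the counting interval and 7 by more; for the long share it was 28 and 9, and for contacts between 11 and 12 it was 33 and 4. The coverage ratio of eggs was 2.99 with isolated contacts left out, 1.20 without recurrent bins and 1.14 without the stretch. That of zygotes was 2.92, 1.10 and 1.17 under these settings and 1.56 with all distinct contacts. The long share of eggs was 30.8% without fragments of more than 4 partners, 23.3% without recurrent bins and 36.1% without the stretch. In sperm it was 5% without isolated contacts and 33.3% with 1 contact per pair of 10 kb bins. In zygotes it was 20% without isolated contacts and 52.9% without the stretch, and in shoot cells 0% without isolated contacts and 75% with far contacts from 50 kb. The ratio of contacts between 11 and 12 was 0 in eggs and 1.91 in zygotes without recurrent bins, 0 in sperm without isolated contacts and 1.55 in zygotes with expectation from length. The cause was not tested. Leaving out 1 cell gave coverage ratios of 1.92 to 2.54 in eggs, 2.05 to 2.53 in zygotes, 1.37 to 1.77 in sperm and 1.03 to 1.31 in shoot cells. The long share then ranged from 41.3% to 54.9% in eggs, 19.0% (without zygote 2) to 45.8% in zygotes, 10.3% to 36.4% (without sperm 1) in sperm and 28.6% to 44.4% in shoot cells. Ratios of contacts between 11 and 12 ranged from 0.153 to 0.461 in eggs, 0.408 to 1.10 in zygotes, 0.368 to 0.504 in sperm and 0.743 to 1.20 in shoot cells. No paired analysis was possible because no result comes from a test and shared numbers only name cells.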
